A study of Mus musculus with 8 samples.

Results

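Among the genes counted in pancreatic tissue of Bach2WT and Bach2KO mice, 10 genes that are widely used to recognise macrophages or the lysozyme that they secrete were followed: Lyz1, Lyz2, Lgals3, Cd68, Adgre1, Csf1r, Cd163, Trem2, Gpnmb and Mpeg1. Their rows were found by gene symbol, and each symbol matched 1 of the 21434 genes in the count table. All 10 passed the filter on low counts, but the list was chosen with earlier results of these data known. Tissue came from 8 untreated mice at 18 weeks of age, 4 homozygous Bach2KO and 4 wild-type Bach2WT mice, with 2 females (mice 1 and 2) and 2 males (mice 3 and 4) in each group. The allele was Bach2tm1b(EUCOMM)Wtsi on a C57BL/6N background. It is a constitutive knockout of the transcription factor BACH2 in every cell of the body, so that an effect in macrophages cannot be told apart from an effect in other cells, and the mutant mice also had a lung disease that limited their age. No treatment was given to either group.

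Macrophages are the resident phagocytes of the pancreas, where they lie around acini, ducts and islets, and monocytes from the blood can add to them. Their survival depends on the receptor CSF1R, they carry scavenger and lipid receptors on the surface, and they digest what they take up in lysosomes. Lysozyme, which cleaves bacterial cell walls, is among the most abundant secreted proteins of macrophages, monocytes and neutrophils. BACH2 is a repressor in lymphocytes and other immune cells that binds DNA together with small MAF proteins.

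The libraries held 72299745 to 172029360 counts on genes, and the 10 genes together held 528 to 3423 counts per library. Acinar cell markers summed to 424000 to 477000 CPM (counts scaled to a common library size) in Bach2KO mice and to 458000 to 612000 CPM in Bach2WT mice, as is usual for pancreas. Macrophage genes were therefore a minor fraction of the RNA. Bach2 itself had 3 to 16 counts in Bach2KO libraries and 4 to 31 counts in Bach2WT libraries, too few to check the genotype labels. In tissue RNA, a larger number of cells of a type and more RNA per cell cannot be told apart.

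None of the 10 genes (0 higher, 0 lower) passed an adjusted p of 0.05 when the genotypes were compared with edgeR by quasi-likelihood, against 0.0078% of all 12820 genes tested that passed as higher in Bach2KO mice and 0% that passed as lower. At an unadjusted p of 0.05, Lyz1, Lyz2, Lgals3 and Mpeg1 were higher in Bach2KO mice, 4 of 10 genes against 3.9% of all genes tested, and 0 of 10 were lower, against 3.56%. DESeq2 called 2 of the 10, Lyz1 and Lgals3, with an adjusted p of 0.00136 each, whereas 0.388% of the 14700 genes with an adjusted p in DESeq2 passed as higher and 0.156% as lower. The fold change was above 1 for 7 of 10 genes, compared with 54.7% of all genes. The median log2 fold change was 0.85 for the 10 genes and 0.0481 for all genes tested. Without Bach2KO mouse 2, the median of the 10 genes was 0.38. Since the 10 genes were chosen with earlier results of these data known, these shares and medians describe the list and do not test it.

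**Figure D1:**
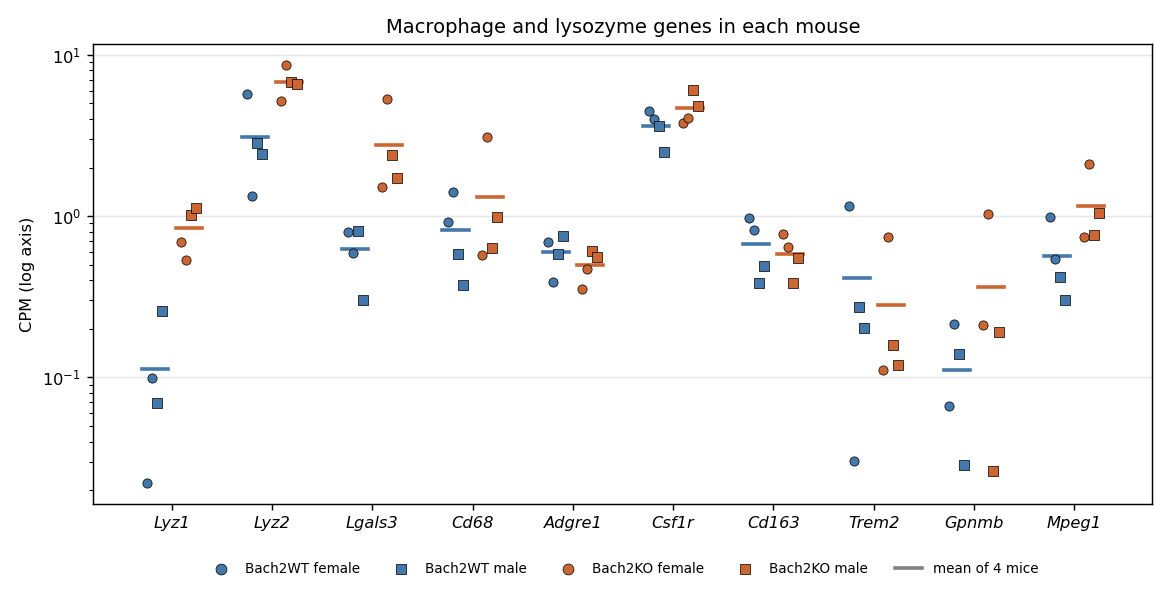
Level of each gene in CPM on a log axis, with 1 point per mouse (circles, females; squares, males) and a bar at the mean of 4 mice. The Bach2KO points of Lyz1 and Lgals3 lie above all Bach2WT points, whereas those of the other 8 genes overlap.

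Per length of gene, the levels in Bach2WT mice fell into a few steps (FPKM, mean ± SD, n = 4). Lyz2 was highest at 2.30 ± 1.38, followed by Cd68 at 0.647 ± 0.357 and Csf1r at 0.620 ± 0.141, then by Lgals3 at 0.332 ± 0.125 and Adgre1 at 0.183 ± 0.0483. Mpeg1 (0.128 ± 0.0672), Cd163 (0.120 ± 0.0494), Lyz1 (0.0881 ± 0.0808), Trem2 (0.0823 ± 0.0994) and Gpnmb (0.017 ± 0.0124) came last. Lyz2 and Cd68, Csf1r and Lgals3, and Lgals3 and Adgre1 were apart by more than the SD of both genes, and the other neighbours in this order were not. In Bach2KO mice, Lyz1 was the fifth at 0.648 ± 0.223, above Mpeg1 at 0.260 ± 0.143 and Adgre1 at 0.149 ± 0.0357.

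Both mouse lysozyme genes, the rarer Lyz1 and the more abundant Lyz2, had a higher mean level in Bach2KO mice. Lyz1 (ENSMUSG00000069515) lies on chromosome 10 at 117123702 to 117128773 and Lyz2 (ENSMUSG00000069516) at 117113236 to 117118226, both on the minus strand of GRCm39. Lyz2 is the copy of macrophages and other myeloid cells, and Lyz1 is known from Paneth cells of the small intestine but is also transcribed in some macrophages. Both coding sequences are 444 bases long in the GENCODE annotation of GRCm38, and 422 bases are identical (95%). Because their counts could be confused, coding bases 37 to 156, which hold 14 of the 22 differences, are shown with the differing bases in capitals.
Lyz1: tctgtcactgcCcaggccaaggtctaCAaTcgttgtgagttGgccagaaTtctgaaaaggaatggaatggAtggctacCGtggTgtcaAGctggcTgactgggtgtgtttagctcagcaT
Lyz2: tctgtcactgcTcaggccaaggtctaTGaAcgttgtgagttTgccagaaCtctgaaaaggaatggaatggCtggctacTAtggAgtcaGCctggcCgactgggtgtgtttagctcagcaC
The longest stretch shared by the 2 transcripts was 118 bases. At the read length of these libraries, 150 bases, 0 of the 1114 possible windows of the Lyz1 transcript were found in Lyz2. How reads that match both copies were counted is not given in the sources used here, and the 2 counts are uncertain to that extent.

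Lyz1 measured 0.686, 0.531, 1.02 and 1.13 CPM in Bach2KO mice 1 to 4 and 0.0222, 0.0991, 0.0696 and 0.259 CPM in Bach2WT mice 1 to 4. The lowest Bach2KO value was above the highest Bach2WT value, as it was for 2.57% of all genes, and the reverse held for 1.92%. In counts, these levels rest on 44 to 219 counts per Bach2KO library and on 2 to 18 counts per Bach2WT library. The fold was 7.71 (95% interval 3.01 to 19.7), a log2 fold change of 2.95 (SE 0.63), with an edgeR p of 0.000412 and an adjusted p of 0.330. Leaving out each mouse in turn gave log2 fold changes of 2.62 to 3.67.

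Lyz2 measured 5.15, 8.65, 6.78 and 6.61 CPM in Bach2KO mice and 5.71, 1.33, 2.83 and 2.42 CPM in Bach2WT mice. A single Bach2WT female, mouse 1, lay within the Bach2KO range, and the other 3 Bach2WT mice lay below it. Its fold was 2.21 (1.32 to 3.71), with an edgeR p of 0.00558 and an adjusted p of 0.523. Lyz2 had the highest FPKM of the 10 genes in Bach2KO mice too, 5.01 ± 1.08 (SD, n = 4).

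Lyz1 made up 11.8% of the lysozyme counts in Bach2KO mouse 1 (95% Wilson interval 9.86 to 14), 5.79% in mouse 2 (4.34 to 7.68), 13.1% in mouse 3 (10.6 to 16) and 14.6% in mouse 4 (12.9 to 16.5). In Bach2WT mice the share was 0.388% (0.106 to 1.4), 6.91% (4.09 to 11.5), 2.4% (1.31 to 4.36) and 9.68% (6.21 to 14.8). The shares overlapped between the genotypes, and the intervals cover counting error only. The log2 ratio of Lyz1 to Lyz2 was -3.03 ± 0.65 in Bach2KO mice and -4.73 ± 1.84 in Bach2WT mice (SD, n = 4), a difference of 1.70 with an exact two-sided permutation p of 0.143. The difference was 0.88 without Bach2WT mouse 1, which had 2 counts of Lyz1, and at most 2.23 without any other mouse. A larger response of Lyz1 than of Lyz2 was thus not shown.

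The 2 genes also resemble each other before the start of transcription, where RefSeq promoters (GRCm38.p6) were compared. Of 248 aligned bases, 200 were identical (80.6%). Bases 150 to 51 before the start are shown from chr10:117292919-117293018 for Lyz1 and chr10:117282323-117282422 for Lyz2, both on the minus strand, with differing bases in capitals. One capital of Lyz2 has no counterpart in Lyz1, so that the lines are offset by 1 base before it.
Lyz1: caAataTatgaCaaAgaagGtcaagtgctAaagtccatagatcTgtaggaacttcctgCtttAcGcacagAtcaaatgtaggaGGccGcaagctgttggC
Lyz2: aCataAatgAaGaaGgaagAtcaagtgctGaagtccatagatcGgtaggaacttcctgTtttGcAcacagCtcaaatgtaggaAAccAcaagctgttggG
GAGGAAGT, a form of the site of the myeloid factor PU.1, was searched for on both strands. It was found in 0 of the 8 promoters at hand for the 10 genes, against 3.2% of 32851 promoters. Each promoter ran from 250 bases before to 50 after the start. Both stretches shown hold acttcctg, which on the other strand differs from the searched letters in the first base only. Other forms of the site were not searched for, so the search does not show that such sites are absent.

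Lysozyme is not particular to macrophages, and markers of its other sources were measured. Neutrophil markers summed to 1.68, 4.13, 2.99 and 1.18 CPM in Bach2KO mice and to 0.944, 0.678, 0.842 and 0.389 CPM in Bach2WT mice, without overlap. Of 14 neutrophil markers listed, 12 had values and 3 were tested: Lcn2 had a log2 fold change of 2.37 (edgeR p 0.00481, adjusted p 0.513), Csf3r of 1.40 (p 0.273) and Mmp9 of 0.86 (p 0.176). Lcn2 and Mmp9 had the highest mean levels of the list in Bach2KO mice (0.862 and 0.806 CPM), and both overlapped between the genotypes. S100a8 and S100a9, the calprotectin subunits of neutrophils and monocytes, were at 0 counts in all 4 Bach2WT libraries. In Bach2KO libraries they measured 0.0104 to 0.528 CPM and 0.0311 to 0.350 CPM. These levels rest on only 2 to 40 and 6 to 29 counts per library, and neither gene passed the filter on low counts. Of the other untested markers, Mpo, Elane, Camp, Ngp, Cxcr2 and Mmp8 had 0 to 6 counts in every library, and Retnlg had 0 to 60. Elane was found in Bach2WT mouse 1 only.
Paneth cell and intestinal markers summed to 0.104 to 0.885 CPM in Bach2KO mice and to 0.0666 to 0.374 CPM in Bach2WT mice, with values for 3 of the 14 genes listed. One of them, the matrix protease gene Mmp7, was at 0 counts in all Bach2WT libraries and measured 0.587, 0.121, 0.159 and 0.0829 CPM in Bach2KO mice. Vil1, the other one tested, overlapped between the genotypes (log2 fold change 0.20, edgeR p 0.827). The defensin genes listed had no values. The part of neutrophils or intestinal cells in the lysozyme difference was not tested. Of 8 further genes of lysozymes and their relatives, among them goose-type lysozymes and alpha-lactalbumin, only Lyzl4 had values. It had a log2 fold change of -0.21 (SE 0.75, edgeR p 0.783).

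Lgals3 encodes galectin-3, a lectin that binds beta-galactosides and is abundant in activated macrophages, but is also made by epithelial cells. It lies on chromosome 14 at 47605208 to 47623617 (ENSMUSG00000050335). Lgals3 measured 1.52, 5.35, 2.40 and 1.71 CPM in Bach2KO mice and 0.799, 0.594, 0.808 and 0.302 CPM in Bach2WT mice. All Bach2KO values were above all Bach2WT values, and Bach2KO mouse 2 was the highest by far. Its fold was 4.33 (2.27 to 8.25), with an edgeR p of 0.000278 and an adjusted p of 0.297, which ranked it 12 of 12820 genes by p. Without Bach2KO mouse 2, the log2 fold change of 2.11 (SE 0.43) came to 1.57. Among the 10 genes, Lgals3 had the fourth highest FPKM in Bach2WT mice and the second highest in Bach2KO mice (1.43 ± 0.926, SD, n = 4).

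Other galectins were divided in direction. Of 8 other galectin and galectin-binding genes tested, 1 was higher and 1 lower at an unadjusted p of 0.05, 0 passed the adjusted threshold in edgeR, and the median log2 fold change was -0.16. Lgals1, the galectin of stromal cells, measured 24.5, 41.6, 53.3 and 42.3 CPM in Bach2KO mice and 61.1, 55.9, 54.8 and 70.4 CPM in Bach2WT mice, so that the genotypes did not overlap (edgeR p 0.0149, adjusted p 0.593). Lgals4, an epithelial galectin of the gut, measured 1.09, 0.217, 0.211 and 0.124 CPM in Bach2KO mice and 0.111, 0, 0.0139 and 0.101 CPM in Bach2WT mice (edgeR p 0.0173, adjusted p 0.602). Duct cell markers summed to 798 to 1210 CPM in Bach2KO mice and to 816 to 1290 CPM in Bach2WT mice. Of 10 duct markers tested, 3 were higher at an unadjusted p of 0.05, Epcam (log2 fold change 0.81, edgeR p 0.00117), Krt7 (0.57, p 0.0213) and Cldn4 (1.31, p 0.0333), and the median was 0.00. The part of duct cells in the Lgals3 difference was not tested.

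Mpeg1 and Cd68 stand for the digestive compartment of macrophages. Mpeg1 encodes perforin-2, a pore-forming protein of the phagosome, and lies on chromosome 19 at 12438143 to 12442647 (ENSMUSG00000046805). It measured 0.741, 2.10, 0.766 and 1.04 CPM in Bach2KO mice and 0.988, 0.541, 0.418 and 0.302 CPM in Bach2WT mice. Bach2WT mouse 1 lay within the Bach2KO range, and Bach2KO mouse 2 was the highest of all 8 mice. The fold was 2.06 (1.05 to 4.05), with an edgeR p of 0.0384 and an adjusted p of 0.659. Without Bach2KO mouse 2, the log2 fold change was 0.60 instead of 1.04.

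Cd68 encodes a lysosomal membrane glycoprotein of the LAMP family, on chromosome 11 at 69555039 to 69556979 (ENSMUSG00000018774). It measured 0.574, 3.09, 0.634 and 0.984 CPM in Bach2KO mice and 0.922, 1.42, 0.585 and 0.374 CPM in Bach2WT mice. The genotypes overlapped, and a single female, Bach2KO mouse 2, set the mean difference. The fold was 1.58 (0.695 to 3.59, edgeR p 0.251, adjusted p 0.856), and the log2 fold change was 0.66 with all mice and -0.18 without Bach2KO mouse 2.

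Lysosomal genes in general were near a log2 fold change of 0. Of 19 cathepsins and lysosomal membrane proteins tested, 2 were higher and 1 was lower at an unadjusted p of 0.05, 0 passed the adjusted threshold in edgeR, and the median was 0.05. Ctss, the cathepsin of antigen-presenting cells, measured 1.74, 2.95, 1.53 and 1.91 CPM in Bach2KO mice and 0.966, 0.762, 0.237 and 0.489 CPM in Bach2WT mice. No value overlapped, with a fold of 3.31 (1.82 to 6.04), an edgeR p of 0.000834 and an adjusted p of 0.352. The legumain gene Lgmn, the other higher one, had a log2 fold change of 0.80 (edgeR p 0.0337).

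**Figure D2:**
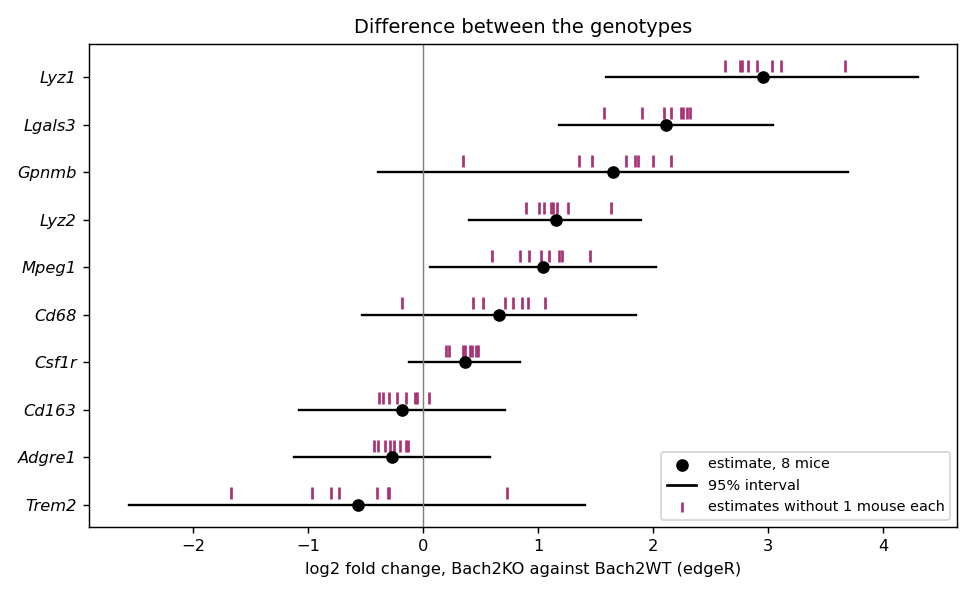
Log2 fold change of each gene in Bach2KO against Bach2WT mice from edgeR, with the 95% interval as a line and the estimates without 1 mouse each as ticks. The intervals of Lyz1, Lgals3, Lyz2 and Mpeg1 lie above 0, those of the other 6 genes include 0, and a tick lies on the other side of 0 for Cd68, Cd163 and Trem2.

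The growth factor receptor and surface markers that define resident macrophages gave smaller differences. Csf1r encodes the receptor for CSF1 and IL-34 (ENSMUSG00000024621). It measured 3.76, 4.08, 6.05 and 4.83 CPM in Bach2KO mice and 4.46, 3.97, 3.61 and 2.48 CPM in Bach2WT mice, so that the females overlapped and both Bach2KO males were above all other mice. The fold was 1.29 (0.922 to 1.80), with an edgeR p of 0.127 and an adjusted p of 0.780, and the coefficient of variation within a genotype was 21.8% and 23.3%. The interval thus leaves out a doubling of Csf1r. Csf1r overlaps Hmgxb3 on the other strand, which had 32 to 272 counts, and whether counting used strand is not given in the sources used here.

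Of 14 other genes of the CSF1 receptor axis and of macrophage transcription factors, 5 were higher and 0 were lower at an unadjusted p of 0.05 in edgeR, and 0 passed the adjusted threshold in either direction. Csf2ra, a subunit of the GM-CSF receptor, measured 0.5, 1.20, 0.872 and 1.01 CPM in Bach2KO mice and 0.400, 0.320, 0.306 and 0.489 CPM in Bach2WT mice (fold 2.36, p 0.00744, adjusted p 0.531). Klf4, a transcription factor of monocytes that epithelial cells also use, measured 1.42, 0.978, 1.57 and 0.736 CPM in Bach2KO mice and 0.622, 0.526, 0.362 and 0.461 CPM in Bach2WT mice (fold 2.39, p 0.0037, adjusted p 0.513). Neither gene overlapped between the genotypes. Among the others were the transcription factor genes Spi1, which encodes PU.1 (log2 fold change 1.43, p 0.041), and Maf (0.88, p 0.0307). The ligands of CSF1R gave a log2 fold change of 0.25 for Csf1 (p 0.387) and of 0.00 for Il34 (p 0.999).

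Adgre1 encodes the F4/80 antigen and lies on chromosome 17 at 57665691 to 57790527 (ENSMUSG00000004730). It measured 0.352, 0.471, 0.608 and 0.560 CPM in Bach2KO mice and 0.688, 0.389, 0.578 and 0.749 CPM in Bach2WT mice. The genotypes overlapped, and the fold was 0.829 (0.46 to 1.5, edgeR p 0.506, adjusted p 0.934). Cd163, the scavenger receptor for haemoglobin and haptoglobin on tissue-resident macrophages, lies on chromosome 6 at 124281615 to 124307486 (ENSMUSG00000008845). It measured 0.772, 0.640, 0.383 and 0.549 CPM in Bach2KO mice and 0.977, 0.823, 0.383 and 0.489 CPM in Bach2WT mice. Females were above males in both genotypes, and the genotypes overlapped with a fold of 0.88 (0.475 to 1.63, edgeR p 0.664, adjusted p 0.960). Both intervals include a fold of 0.5, and the log2 fold change of Cd163 was 0.05 without Bach2WT mouse 1.

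Further macrophage markers covered the same range. Of 18 tested, 16 had a fold change above 1, 2 were higher and 0 lower at an unadjusted p of 0.05, 0 passed the adjusted threshold in edgeR, and their summed level was 21.0 to 32.1 CPM in Bach2KO mice and 13.4 to 27.7 CPM in Bach2WT mice. Those 2 were the Fc receptor gene Fcgr3 (log2 fold change 1.64, p 0.0233) and C1qb (0.95, p 0.00874). The complement genes C1qa and C1qb encode chains of the same molecule, yet C1qa measured 5.99, 4.79, 9.25 and 7.09 CPM in Bach2KO mice and 9.77, 18.2, 7.12 and 7.08 CPM in Bach2WT mice, a log2 fold change of -0.64 (SE 0.30, edgeR p 0.0515). Bach2WT mouse 2 held the highest C1qa value. Of 9 monocyte markers tested, only Nr4a1 had an unadjusted p under 0.05 (log2 fold change 1.84, p 0.0234), and the median was 0.46.

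Trem2 and Gpnmb mark macrophages that handle lipid, and both were near the limit of detection. Trem2 encodes a lipid receptor that signals through the adaptor TYROBP and lies on chromosome 17 at 48653429 to 48661175 (ENSMUSG00000023992). It measured 0.111, 0.737, 0.159 and 0.119 CPM in Bach2KO mice and 1.15, 0.0305, 0.272 and 0.202 CPM in Bach2WT mice. The 2 highest values came from females of opposite genotype, and the coefficient of variation was 108% and 121%. The fold of 0.672 had an interval of 0.17 to 2.66 (edgeR p 0.544, adjusted p 0.940), and the log2 fold change was -0.57 with all mice and 0.73 without Bach2WT mouse 1.

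Gpnmb encodes a transmembrane glycoprotein of lysosome-rich macrophages and pigment cells, on chromosome 6 at 49013480 to 49047863 (ENSMUSG00000029816). It measured 0.210, 1.03, 0.0264 and 0.192 CPM in Bach2KO mice and 0.0666, 0.213, 0.139 and 0.0288 CPM in Bach2WT mice. Only Bach2KO mouse 2 was above the Bach2WT range, and Bach2KO mouse 3 was the lowest of all. The fold of 3.13 had an interval of 0.761 to 12.9 (edgeR p 0.105, adjusted p 0.762), and the log2 fold change of 1.65 came to 0.35 without Bach2KO mouse 2.

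Of 18 genes of the TREM2 pathway and of lipid-associated macrophages, 2 were higher and 0 lower at an unadjusted p of 0.05, 0 passed the adjusted threshold in edgeR, and the median log2 fold change was 0.31. The 2 genes were Fabp5, a fatty acid binding protein gene (0.90, p 0.00352), and Fcer1g, the signalling chain of Fc receptors (1.64, p 0.00826). The TREM2 adaptor gene Tyrobp had a log2 fold change of 1.09 (p 0.0825).

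BACH2 with a small MAF partner recognises DNA that holds an AP-1-like core, so the promoters were searched for TGANTCA on both strands. N stands for any base, so the search was wider than the AP-1 core and also took in TGAATCA of Trem2. TGANTCA was found in 3 of the 8 promoters at hand (Cd68, Trem2 and Gpnmb), and in 7.81% of all 32851. The matches of Cd68 and Trem2 before the start of transcription are shown with 30 bases of RefSeq sequence each (GRCm38.p6), the matched letters in capitals, from chr11:69666301-69666330 and chr11:69666176-69666205 on the minus strand and from chr17:48346371-48346400 on the plus strand.
Cd68, 149 bases before the start: taagttccgtgTGAGTCAgctgcctcattc
Cd68, 24 bases before the start: gctgaggtgtcTGAGTCAggtttggggtgg
Trem2, 9 bases before the start: cctcacgcccttctccctcctTGAATCAca
A match of letters is not a binding site, binding was not measured, and the levels of all 3 genes overlapped between the genotypes.

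The 10 genes did not follow a common course over the 8 mice. Their summed level was 13.9, 26.7, 18.8 and 17.7 CPM in Bach2KO mice and 15.8, 9.42, 9.7 and 7.6 CPM in Bach2WT mice. Bach2KO mouse 2 had the highest sum, and Bach2WT mouse 1 exceeded Bach2KO mouse 1. In the mean of the 10 standardized log2 levels, Bach2KO mouse 2 stood at 0.98 and Bach2WT mouse 4 at -0.76. When this mean course was itself standardized over the mice, Mpeg1 lay closest to it (root mean square distance 0.144 over the 8 libraries). Lgals3 (0.442) and Lyz2 (0.509) followed, and Lyz1 (1.07), Cd163 (1.16) and Adgre1 (1.41) lay farthest from it. Each of the 10 genes is part of this mean, so their distances cannot be set against those of other genes. Among all other genes tested, the nearest were Capg, which encodes a macrophage actin-capping protein (0.171), the myeloid lectin gene Clec12a (0.266) and Cnot11, which encodes a subunit of the CCR4-NOT complex (0.309).

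**Figure D3:**
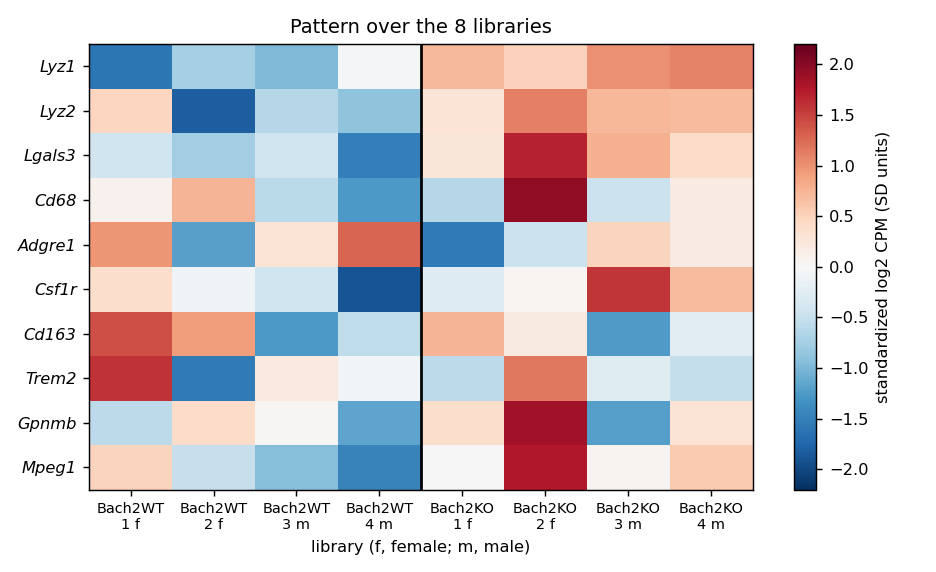
Standardized log2 CPM of each gene (rows) in each library (columns; f, female; m, male), in SD units around the gene's mean over the 8 libraries, with red above and blue below the mean. Lyz1 is low or near its mean in Bach2WT mice and high in all Bach2KO mice, the darkest red cells of Cd68, Gpnmb, Mpeg1 and Lgals3 fall on Bach2KO mouse 2, and Adgre1 and Cd163 show no split by genotype.

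Bach2KO mouse 2 was not high for markers of all immune cells. Its macrophage markers outside the 10 genes summed to 21.3 CPM, within the Bach2WT range. This sum was mostly C1qa, C1qb and C1qc, of which C1qa was the lowest of all mice (4.79 CPM). The less abundant markers went both ways. Fcgr1 (0.797 CPM), Itgam (0.483), Ms4a7 (0.386), Aif1 (0.314) and Ms4a6c (0.266) were the highest of all mice. Timd4 and Cd5l (0 CPM each) and Lyve1 (0.241) were the lowest of all mice. Its T cell markers summed to 0.809 CPM and B cell and lymph node markers to 1.00 CPM, both the lowest sum of the Bach2KO mice. Its neutrophil markers, at 4.13 CPM, were the highest of all mice. Bach2WT mouse 1 and Bach2KO mouse 1 had the highest B cell and lymph node sums (8.64 and 8.56 CPM) and T cell sums (1.83 and 2.82 CPM). The part of lymphoid tissue in the level of the 10 genes was not tested.

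Ratios between the genes, in which the size of the library largely cancels, were compared by exact two-sided permutation tests over the mice. In all, 3 ratios were tested. A prior count of 2 was added before the log, which matters where counts are low. With 0.5 instead, the difference in the log2 ratio of Lyz1 to Lyz2 was 1.93 rather than 1.70. The log2 ratio of Lgals3 to Csf1r was -0.93 ± 0.88 in Bach2KO mice and -2.57 ± 0.35 in Bach2WT mice (SD, n = 4), without overlap, and the difference of 1.64 had an exact p of 0.0286, the smallest possible with 4 against 4 mice, and an adjusted p of 0.0857. The log2 ratio of Lyz2 to Csf1r was 0.54 ± 0.39 and -0.40 ± 0.83 (SD, n = 4), with overlap and an exact p of 0.0571 (adjusted 0.0857). Neither ratio passed the threshold after adjustment. With 3 ratios adjusted, a ratio that alone reached the smallest exact p could not have passed. For Lgals3 to Csf1r this outcome therefore does not show that a difference is absent.

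The log2 fold change had the same direction in both sexes for Lyz1, Lyz2, Lgals3 and Mpeg1. These genes were picked out by the test over both sexes, which makes such agreement likely. Cd68, Gpnmb, Adgre1 and Trem2 also kept their direction, and Csf1r and Cd163 did not. In females, Lyz2 and Mpeg1 overlapped between the genotypes. The log2 fold change of Lyz1 was 3.25 in females and 2.76 in males, that of Lyz2 was 0.97 and 1.35, that of Lgals3 was 2.30 and 1.85, and that of Mpeg1 was 0.89 and 1.32. For Csf1r it was -0.10 in females and 0.83 in males. The test of this difference between the sexes (0.94, SE 0.39) gave an edgeR p of 0.0327 and an adjusted p of 0.807 with 2 mice per cell, and 0 of the 10 genes passed, in edgeR as in DESeq2. Over all genes tested, 0 passed the adjusted threshold for such a difference and 787 had an unadjusted p under 0.05.

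**Figure D4:**
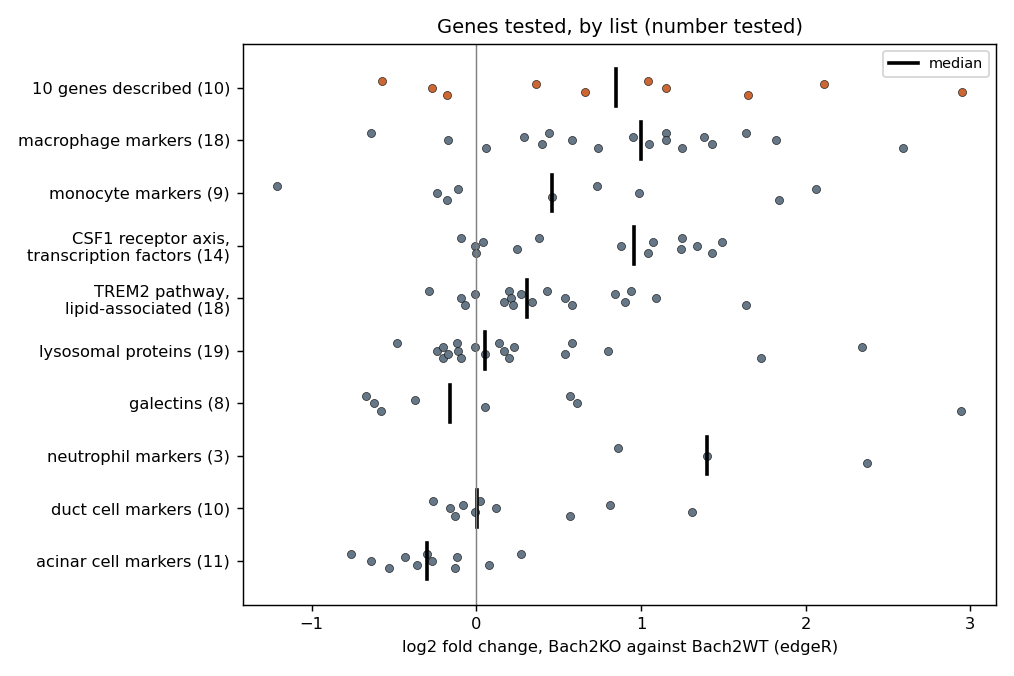
Log2 fold changes of all tested genes of the lists drawn (points) with the median of the list (bar), from edgeR. Some lists, among them T cell and dendritic cell markers, are not drawn. The 10 genes described, the other macrophage markers and the genes of the CSF1 receptor axis have medians of 0.85, 1.00 and 0.96. The median of neutrophil markers (3 genes tested) is 1.40, that of monocyte markers 0.46 and that of the TREM2 pathway 0.31. Those of lysosomal proteins, galectins, duct cell markers and acinar cell markers are 0.05, -0.16, 0.00 and -0.30.

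Remaining cell types gave no list with a gene past the adjusted threshold in edgeR. At an unadjusted p of 0.05, 1 of 5 eosinophil and mast cell markers was higher (Alox15, log2 fold change 1.03, p 0.0282), as was 1 of 5 B cell and lymph node markers (Ccl21a, 2.13, p 0.0055), although the other 4 had fold changes below 1, among them Fcer2a (-3.04, p 0.0593) and Cd79a (-1.22, p 0.281), and the median of the list was -1.22. At the same threshold, 0 of 5 T cell markers, 0 of 10 stellate cell and fibroblast markers, 0 of 6 relatives of the 10 genes and 0 of 1 dendritic cell marker were higher. Yet all 5 T cell markers tested had fold changes above 1, with a median log2 fold change of 0.91. Their list summed to 0.809 to 2.82 CPM in Bach2KO mice and to 0.187 to 1.83 CPM in Bach2WT mice. Dendritic cell markers, of which 1 of 10 listed was tested, summed to 0.978 to 1.80 CPM and to 0.806 to 0.961 CPM, without overlap. Of 6 adipocyte markers, Plin1 was lower (-4.57, p 0.00144), and of 11 acinar cell markers, Cpa1 (-0.53, p 0.00409), Cela3b (-0.64, p 0.00551) and Cela2a (-0.43, p 0.0244) were lower. Since acinar transcripts make up much of each library, the log2 fold changes were also computed with library sizes that leave out the 18 genes with over 1% of the counts, which gave 2.93 for Lyz1, 2.10 for Lgals3, 1.14 for Lyz2 and 1.03 for Mpeg1.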

How the data were processed

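Poly-T-selected mRNA of pancreatic tissue was sequenced as 150-base read pairs by a commercial provider. The submitters' processing notes name fastp, HISAT2 2.2.1, featureCounts 2.0.6 and mm39; strand, mate and multimapping settings are not given in the sources used here. The authors deposited unnormalized counts per gene and library, a normalized signal, which is these counts divided by a size factor per library, and FPKM values, which divide that signal by gene length. The authors' own log2 fold changes, p-values and group means were not used. Of counts between 1 and 20, more were even than odd, so both mates may have been counted, and an alternative halved the counts.

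Genotypes were compared with edgeR 4.0.16 (R 4.3.3; quasi-likelihood, TMM, filterByExpr, no covariate) in all 8 libraries over 12820 genes, with Benjamini-Hochberg adjustment and a threshold of 0.05. In simulated counts with dispersions estimated from these data, 65% of 200 genes changed by 2 (log2) were called, and 6.47% of the calls were false. The adjustment is stricter where fewer genes change. Since 1 gene passed in the data, the 65% may overstate the power there. CPM used TMM library sizes, and ratios a prior count of 2. The standard error is the log2 fold change divided by the square root of F. Intervals are 95%. Exact permutation tests were two-sided.

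The 10 genes, the lists and the tests were chosen with earlier results of these data known. Named besides the 10 genes were up to 3 tested genes per list with the smallest p, and the 3 genes nearest to the mean course. S100a8, S100a9, Tyrobp, Spi1, Csf1, Il34, C1qc, Fcgr1, Itgam, Ms4a7, Aif1, Ms4a6c and the summed levels were added after their values were seen. So were Timd4, Cd5l, Lyve1, Mpo, Elane, Camp, Ngp, Cxcr2, Mmp8 and Retnlg. Some genes of the lists are not reported here by name. Promoters came from RefSeq for 8 of the 10 genes (not Adgre1 and Csf1r). The comparison was repeated with DESeq2 1.42.0, with RLE factors, with library sizes that leave out genes over 1% of counts, no filter, at least 10 counts in every library, sex as covariate, the replicate number as block, a gene length offset (loess, span 0.3), halved counts, a prior count of 0.5 for ratios, and leaving out each mouse.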

Additional observations from a re-analysis of the deposited data

Results flagged for a closer look

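In 26 groups of 4 mice, a value was looked for that stood apart from the other 3 by more than Dixon's 95% critical ratio of gap to range (0.829). For independent groups of normal values, chance gives about 1 such value in 20 groups (5%). Genes of 1 mouse are not independent, and their CPM was not put on a log scale, so this share is a rough guide only. Found were 3, all in Bach2KO mouse 2, a female. Cd68 measured 3.09 CPM there against 0.574 to 0.984 CPM in the other Bach2KO mice (ratio 0.837). Trem2 measured 0.737 CPM against 0.111 to 0.159 CPM (0.923). The log2 ratio of Lgals3 to Csf1r was 0.389 against -1.49 to -1.30 (0.898). The cause was not tested.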

How the results depend on the processing

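Of 166 log2 fold changes of the 10 genes under alternatives, 163 kept their direction. Those that turned were Cd68 at -0.18 without Bach2KO mouse 2, and Cd163 at 0.05 and Trem2 at 0.73 without Bach2WT mouse 1. Without 1 mouse each, Cd68 ran from -0.18 to 1.06, Cd163 from -0.38 to 0.05 and Trem2 from -1.67 to 0.73. The number of the 10 genes that passed as higher at an adjusted p of 0.05 was 0 in edgeR but 2 (Lyz1 and Lgals3) with DESeq2 and 2 without the filter, where the adjusted p was 0.0182 for Lyz1 and 0.0039 for Lgals3 (0 without any 1 mouse). Over the alternatives the adjusted p ran from 0.00136 to 0.674 for Lyz1 and from 0.00136 to 0.617 for Lgals3. Over all genes, 1 gene passed as higher and 0 as lower. This became 57 and 23 with DESeq2, 55 and 18 without the filter, and 0 higher with at least 10 counts in every library, with sex as covariate, with the replicate block, with halved counts and without any 1 mouse. The cause was not tested. The filter at 10 counts in every library left out Lyz1, Trem2 and Gpnmb, and halving the counts left out Trem2.

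Deviations of same-numbered mice had correlations of 0.212, -0.034, -0.041 and -0.054, against -0.165 to 0.106 between mice of different number. The largest was that of mouse 1 in both groups, and such values cannot decide whether the numbers pair the mice. With the replicate block as pairs, the log2 ratio of Lgals3 to Csf1r still differed by 1.64, with an exact p of 0.125, the smallest that 4 pairs allow, and without 1 mouse each it differed by 1.20 to 1.82 (exact p 0.0571, again the smallest possible). Of genes at an unadjusted p under 0.05, 52.2% were higher, against 27.2% with a gene length offset, which moved the median log2 fold change over all genes to -0.086, and 61.1% without the filter. Low counts limited Lyz1 in Bach2WT mice, Trem2 and Gpnmb.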
